A study of Caenorhabditis elegans with 2 samples.

Results

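The genes sls-2.1, sls-2.2, sls-2.4 and sls-2.8 encode spliced leader 2 (SL2) RNAs, short noncoding RNAs of the nematode Caenorhabditis elegans. They are 4 of the 18 annotated sls-2 genes and were selected on the strong chromatin immunoprecipitation sequencing (ChIP-seq) signal of the nuclear hormone receptor NHR-11 beside them. Their signals and ranks are therefore given as a description. A gene counted as having a peak when a summit, the highest point of a peak in the authors' lists, lay within 500 bp of it. Gene names and positions came from Ensembl release 115 for build WBcel235, which has the sequence of ce11.

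All animals were whole L4 larvae of mixed sex from strain OP305, genotype unc-119(ed3) III with the insertion wgIs305, which supplies NHR-11 tagged with enhanced green fluorescent protein (eGFP). ChIP-seq recovers and sequences the DNA attached to a chosen protein. There was 1 group with 2 biological replicates, and every animal carried the tagged protein. The calling by the authors took in another file besides the alignments, one that also served for control-normalised signal, but its role is unstated. No control data were compared here, so a peak of NHR-11 and a peak that any sample would give cannot be told apart beyond what that calling removed. In whole larvae the tissue of binding is not known. Sequencing depth is unknown, because the files hold peaks and not reads.

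Many messages of C. elegans receive a short leader by trans-splicing, in which the leader is cut from one RNA and joined to another. SL1 is joined mainly to the first or only gene of a transcription unit, whereas SL2 is joined mainly to the downstream genes of operons, where the polycistronic transcript is cut into single messages. An SL RNA is consumed when its leader is transferred. It is made by RNA polymerase II, carries a site for the Sm proteins and works as a small nuclear ribonucleoprotein. Promoters of such small nuclear RNA (snRNA) genes typically hold a proximal sequence element upstream of the start, read by the SNAP complex. NHR-11 belongs to the nuclear hormone receptors, transcription factors that bind DNA through zinc fingers.

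The strongest summits of the 4 genes lay in the bases just before the annotated start. The 70 bases upstream are shown first, from RefSeq's genome sequence of WBcel235, to let sls-2.1, sls-2.2 and sls-2.8 be compared with sls-2.3, a close relative with a weaker peak, and with sls-2.12 and sls-2.5, which had no peak within 500 bp in any list. Each line reads 5′ to 3′ on the gene's strand and ends at the base before the gene. Capitals mark a 15-base word, TCGCTTGCCTCGAAA, called box A here, and the 10-letter pattern GTCNGNNCAC, called box B. Both names are labels for these letters and not for a known binding site.
sls-2.1 upstream (chrII:5844795-5844864, + strand): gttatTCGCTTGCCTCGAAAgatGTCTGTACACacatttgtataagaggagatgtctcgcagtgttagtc
sls-2.2 upstream (chrII:5543528-5543597, + strand): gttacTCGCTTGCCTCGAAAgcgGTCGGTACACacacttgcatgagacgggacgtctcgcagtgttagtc
sls-2.3 upstream (chrII:5544274-5544343, - strand): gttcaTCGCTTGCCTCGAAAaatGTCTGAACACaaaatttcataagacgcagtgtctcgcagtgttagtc
sls-2.8 upstream (chrIII:12250395-12250464, + strand): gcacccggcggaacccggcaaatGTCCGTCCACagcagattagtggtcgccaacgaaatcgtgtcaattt
sls-2.12 upstream (chrIV:5261843-5261912, + strand): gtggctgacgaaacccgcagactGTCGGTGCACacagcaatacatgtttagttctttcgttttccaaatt
sls-2.5 upstream (chrIII:7140554-7140623, - strand): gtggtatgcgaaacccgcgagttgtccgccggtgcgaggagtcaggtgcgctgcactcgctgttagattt

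The genes themselves follow, on the same strand and from the same source, with the leader that is spliced onto messages in capitals. They are shown because sls-2.1 to sls-2.3 share the same leader, whereas sls-2.8 does not.
sls-2.1 gene (chrII:5844865-5844974, + strand): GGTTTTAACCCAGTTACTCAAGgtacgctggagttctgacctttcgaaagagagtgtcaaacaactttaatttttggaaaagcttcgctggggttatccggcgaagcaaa
sls-2.2 gene (chrII:5543598-5543707, + strand): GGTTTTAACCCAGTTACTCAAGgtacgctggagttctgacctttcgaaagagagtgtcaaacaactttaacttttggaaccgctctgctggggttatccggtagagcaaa
sls-2.3 gene (chrII:5544164-5544273, - strand): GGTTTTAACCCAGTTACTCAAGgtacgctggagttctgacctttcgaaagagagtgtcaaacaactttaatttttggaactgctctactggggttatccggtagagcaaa
sls-2.8 gene (chrIII:12250465-12250575, + strand): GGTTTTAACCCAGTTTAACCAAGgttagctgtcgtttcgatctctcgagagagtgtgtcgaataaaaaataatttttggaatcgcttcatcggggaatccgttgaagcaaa

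The 4 genes carried summits in the pooled list (13558 peaks called on both replicates' alignments), in the thresholded list (its 2719 strongest peaks) and in the list of each replicate. The signal comes from the authors' peak caller, its scale is unstated, and it was compared only within a list. The gene sls-2.4 (WBGene00004836), at 4172206 to 4172315 on the plus strand of chromosome I, had the strongest summit, with a pooled signal of 351 and rank 33 of the pooled list. Its signal was 180.3 in replicate 1 (rank 25) and 170.2 in replicate 2 (rank 44). Both libraries thus placed it among their strongest peaks.

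The gene sls-2.2 (WBGene00004834) had a pooled signal of 317 (rank 46), with 176 in replicate 1 (rank 27) and 140.3 in replicate 2 (rank 75). The gene sls-2.1 (WBGene00004833) had a pooled signal of 307 (rank 54), with 139 in replicate 1 (rank 73) and 173 in replicate 2 (rank 39). Replicate 1 placed sls-2.1 below sls-2.2 and sls-2.4, whereas replicate 2 placed it above both, so the order of these 3 genes differed by less than the spread between replicates. The gene sls-2.8 (WBGene00004840) was the weakest of the 4, with a pooled signal of 199 (rank 206), 97.0 in replicate 1 (rank 237) and 98.6 in replicate 2 (rank 225). It lay below the other 3 genes in each replicate. For scale, the median signal was 30.6 in the pooled list, 14.5 in replicate 1 and 13.0 in replicate 2.

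Just outside the selected genes stood sls-2.3 (WBGene00004835), whose upstream summit had a pooled signal of 97.4 (rank 1034), with 57.4 in replicate 1 and 43.2 in replicate 2. The strongest summit within 500 bp of sls-2.3, with a pooled signal of 163, is the downstream summit of its neighbour sls-2.2. The lowest signal among the selected genes was 199. The signal in replicate 2 was 1.24 times that in replicate 1 at sls-2.1, 0.799 times at sls-2.2, 0.753 times at sls-2.3, 0.944 times at sls-2.4 and 1.02 times at sls-2.8. The median signal of the strongest 2719 peaks of replicate 2 was 1.04 times that of replicate 1, without matching peaks by place. The genes lay on either side of this value.

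**Figure D1:**
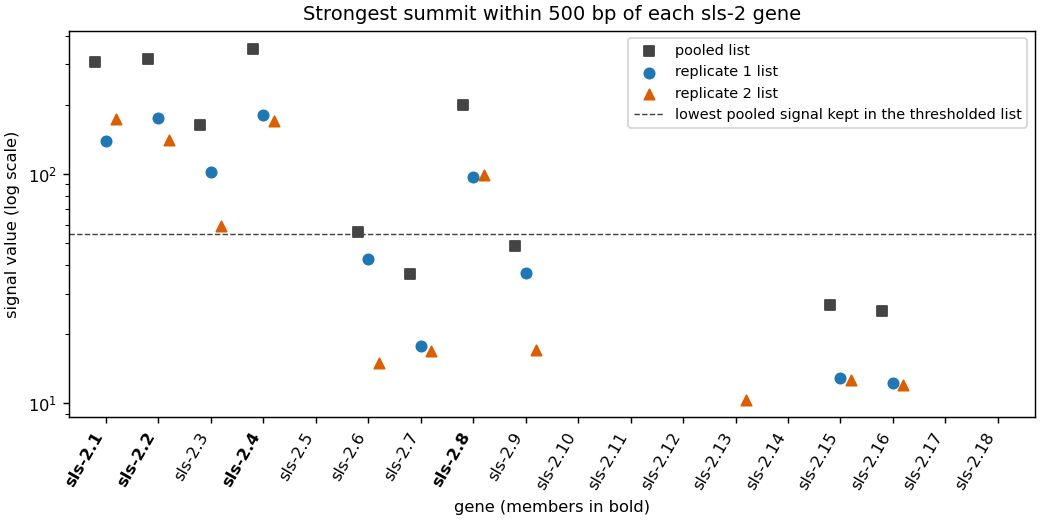
Signal of the strongest summit within 500 bp of each of the 18 sls-2 genes (log axis, unit of the authors' peak caller), with separate markers for the pooled, replicate 1 and replicate 2 lists and a dashed line at 54.9, the lowest pooled signal kept in the thresholded list. The 4 selected genes have pooled signals from 199 to 351, and the point of sls-2.3 is the downstream summit of its neighbour sls-2.2 rather than its own upstream summit at 97.4.

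The summits were close to the annotated start in every list. In the pooled list the summit of sls-2.2 lay 40 bp upstream of the start, that of sls-2.4 lay 43 bp, that of sls-2.8 lay 59 bp and that of sls-2.1 lay 62 bp upstream. The pooled summits of sls-2.1 and sls-2.8 fell at box A's columns and those of sls-2.2 and sls-2.4 within box B, but the replicates did not place them so exactly. The summits of replicates 1 and 2 were 2 bp apart at sls-2.8, 10 bp at sls-2.4, 15 bp at sls-2.1 and 20 bp at sls-2.2. The boxes are thus no farther apart than the replicates' summits of some genes, and a summit cannot be assigned to one box.

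The nearness to the start was not part of the selection beyond the limit of 500 bp. The strongest thresholded summit within 500 bp lay 1 to 100 bp upstream of the start at 4 of 4 selected genes. At sls-2.3 a thresholded summit also lay 32 bp upstream, but the strongest within 500 bp was the downstream summit of sls-2.2, and at sls-2.6 it lay 282 bp upstream. Among other snRNA genes with a thresholded summit, the strongest lay there at 3 of 5 (60%), namely C52E4.8, F38E11.10 and W05B2.8, so the position was not particular to the SL2 genes. It lay there for 193 of 1053 other noncoding genes with a thresholded summit (18.3%) and for 213 of 2082 protein-coding genes with one (10.2%). The window of 500 bp is counted from the whole gene, so a longer gene admits summits over a longer stretch. These shares were matched neither for gene length nor for peak strength. The peak intervals of sls-2.2 and sls-2.4 were 108 and 100 bp wide, where the usual width was 376 bp. They are 2 of the 64 narrower thresholded peaks, so for these genes the middle of the interval is a poor guide to the position of the summit.

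A downstream summit accompanied 3 of the 4 genes. At sls-2.4 it lay 157 bp after the start with a pooled signal of 172 (rank 309), at sls-2.2 167 bp after the start with 163 (rank 348), and at sls-2.1 148 bp after the start with 124 (rank 663). These positions are beyond the 3′ ends of the genes, which are 110 bp long. The upstream and downstream summits were 200 bp apart at sls-2.4, 207 bp at sls-2.2 and 210 bp at sls-2.1, and their midpoint lay within 11.5 bp of the gene's middle. The downstream signal was 0.490 of the upstream signal at sls-2.4, 0.513 at sls-2.2 and 0.402 at sls-2.1. No annotated gene lay over any of these upstream or downstream summits.

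The replicates differed most at the downstream summit of sls-2.1, which had a signal of 20.1 in replicate 1 (rank 4758) and 83.2 in replicate 2 (rank 350). The downstream summit of sls-2.4 had a signal of 87.5 in replicate 1 and 69.6 in replicate 2, and that of sls-2.2 had 102 and 58.9. The gene sls-2.8 had a downstream summit in the list of replicate 2 only, 142 bp after the start, with a signal of 23.4 (rank 3819). The pairs at sls-2.2 and sls-2.4 were thus found strongly in both libraries, that at sls-2.1 mainly in replicate 2, and that at sls-2.8 weakly in a single library.

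Paired summits were not frequent in the list. A thresholded summit had another within 250 bp for 78 of 2719 peaks (2.87%), and for 11 of the 206 peaks at least as strong as the upstream peak of sls-2.8 (5.34%). Both counts include the upstream peaks of sls-2.1, sls-2.2 and sls-2.4, and the 78 include their downstream peaks. The smallest gap between neighbouring summits was 199 bp, and 34 of the 39 gaps of up to 250 bp were between 190 and 220 bp. The spacing at the SL2 genes is therefore the usual one of close summits in the thresholded list. The share of the 36-base words in a gene that occur more than once in the genome was counted. It was 58.7% at sls-2.1, 46.7% at sls-2.2, 58.7% at sls-2.3, 21.3% at sls-2.4 and 0% at sls-2.8. With words of 50 bases the shares were 49.2%, 34.4%, 49.2% and 3.28% at sls-2.1 to sls-2.4. These are shares of overlapping words and not of bases. They fall with word length even where the repeated stretch is the same, and do not give the length repeated. Of the 36-base words within the 250 bp on either side of these genes and of sls-2.8, 0% were repeated. No downstream summit of its own was listed at sls-2.3, where the pooled upstream signal was 97.4, against 307 at sls-2.1. The part of repeats in the pairing was not tested, and the read length is not given in the sources used here.

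**Figure D2:**
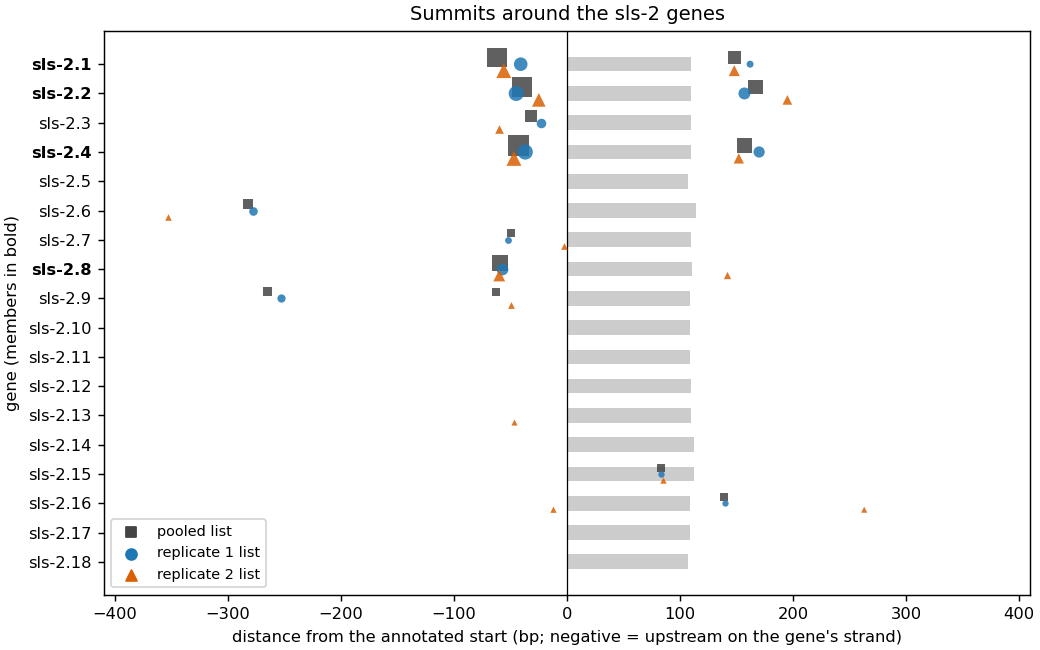
Positions of summits around the start of the sls-2 genes, in bp from the annotated start on the gene's strand (negative is upstream), by list, with bars for the genes and marker area growing with signal. The upstream summits of the 4 selected genes and sls-2.3 lie within 62 bp of the start, and the downstream summits of sls-2.1, sls-2.2 and sls-2.4 lie 148 to 167 bp after it.

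The selected genes also had neighbours that could share a peak. The gene sls-2.8 lies between tim-1, which encodes a homologue of the Timeless protein, and Y75B8A.23, and its summit lay 242 bp upstream of the start of tim-1 and 254 bp upstream of that of Y75B8A.23. The summit of sls-2.4 lay 574 bp upstream of egg-5, which is needed at the transition from egg to embryo, and 275 bp from the body of R12E2.11. The summit of sls-2.1 lay 738 bp from the start of ZK1248.17 and 974 bp upstream of H41C03.3. A thresholded summit in the window from 1000 bp upstream to 200 bp downstream of a start was found for 1654 of 19973 protein-coding genes (8.28%) and a pooled summit for 25.3%. The peaks of sls-2.1, sls-2.4 and sls-2.8 thus also counted for coding genes.

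The gene sls-2.2 stood apart from coding starts, the nearest being that of ins-13, an insulin-like peptide gene, 1306 bp from the summit. It faces sls-2.3, with 456 bases between them, and sls-2.3's summit lay 559 bp from the start of ins-13. Antisense noncoding genes overlap several SL2 genes, namely C17C3.23 at sls-2.2, C17C3.22 at sls-2.3, R12E2.18 at sls-2.4 and Y75B8A.49 at sls-2.8. On the minus strand, C17C3.23 starts at 5543698 and R12E2.18 at 4172306. The downstream summits of sls-2.2 (5543765) and sls-2.4 (4172363) thus also lie just upstream of these antisense starts. ChIP-seq does not separate the strands of a locus, so the peaks cannot be given to one of the overlapping genes.

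Across the family, 6 of 18 sls-2 genes (33.3%) had a thresholded summit within 500 bp, which were the 4 selected genes, sls-2.3 and sls-2.6. A thresholded summit was found for 5 of 111 other snRNA genes (4.5%), 1053 of 24771 other noncoding genes (4.25%) and 2082 of 19973 protein-coding genes (10.4%). The selection used the thresholded list, so nothing is read from the difference. The summit of sls-2.6 lay 282 bp upstream with a signal of 55.7 (rank 2647), just above the lowest signal kept. It was 42.5 in replicate 1 and 15.0 in replicate 2, so the replicates placed it very differently.

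In the pooled list, 10 of 18 genes had a summit within 500 bp, and in both replicate lists 10 of 18 had one. The selection used these lists too, so 4 of each 10 are there by selection. Of the 14 genes not selected, 6 had a pooled summit and 6 a summit in both replicate lists, where 17.1% and 14.4% of other snRNA genes had one. The count over both replicate lists did not require summits at the same place. At sls-2.9 the summit lay 253 bp upstream in replicate 1 and 50 bp upstream in replicate 2. The further genes in the pooled list had signals below the threshold. These were sls-2.7 with 36.5 at 50 bp upstream, sls-2.9 with 48.4 and 32.9 at 265 and 63 bp upstream, sls-2.15 with 26.9 and sls-2.16 with 25.3 at 83 and 139 bp after the start. The gene sls-2.13 had a summit in the list of replicate 2 only, 47 bp upstream, with a signal of 10.4. No list had a summit within 500 bp of sls-2.5, sls-2.10, sls-2.11, sls-2.12, sls-2.14, sls-2.17 or sls-2.18.

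**Figure D3:**
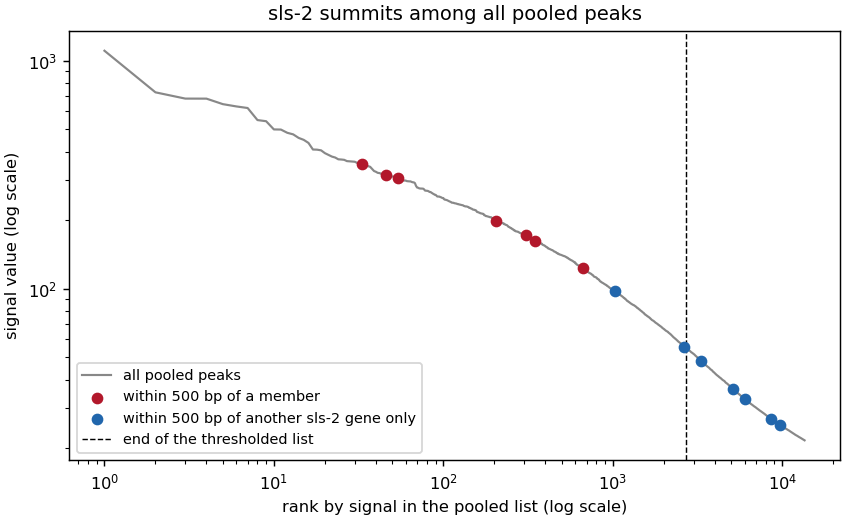
Pooled signal against rank for all 13558 pooled peaks (both axes log), with the summits of the 4 selected genes marked in red. Their upstream summits lie at ranks 33 to 206, and the downstream summits of sls-2.1, sls-2.2 and sls-2.4 at ranks 309 to 663.

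The selected genes differed in their upstream sequence. Box A was found in the 100 bases upstream of sls-2.1, sls-2.2, sls-2.3 and sls-2.4 and at no other place in the genome, 4 places in all on either strand, and it lay 65 to 51 bases before the start. The same 4 genes, and no other sls-2 gene, share a 22-base leader. Box A was taken from the upstream sequences of these 4 genes, so its presence in all of them is by construction. The gene sls-2.8 has a peak but neither box A nor this leader, and its leader is 23 bases long. The presence of box A at 3 of the 4 selected genes therefore follows from how it was chosen. Box A was found upstream of 0 of 19973 protein-coding and 0 of 111 other snRNA genes.

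Box B was defined on the 5 genes with a thresholded summit 1 to 100 bp upstream and so is present in all 5 by construction. It begins 47 bases before the start in these genes. On either strand it was found upstream of 12 of 18 sls-2 genes (66.7%), 36 of 111 other snRNA genes (32.4%) and 74 of 19973 protein-coding genes (0.371%). The 12 genes include sls-2.12 and sls-2.14, which had no peak within 500 bp. The 6 without box B include sls-2.5, whose upstream sequence is printed above, and sls-2.6 and sls-2.7, which had weaker peaks. Presence of these letters thus did not follow presence of a peak in the lists. At sls-2.12, 66.7% of the 36-base words in the gene and 38.6% of those in the 250 bp upstream occur more than once in the genome. At sls-2.14 both shares are 0%. Whether reads could be placed at repeated copies was not tested. Of 35 other snRNA genes with box B on their own strand, 1 had a thresholded summit within 500 bp and 0 had one 1 to 100 bp upstream. Of 76 without it, 4 and 3 did. A match describes the letters and is not a binding site.

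**Figure D4:**
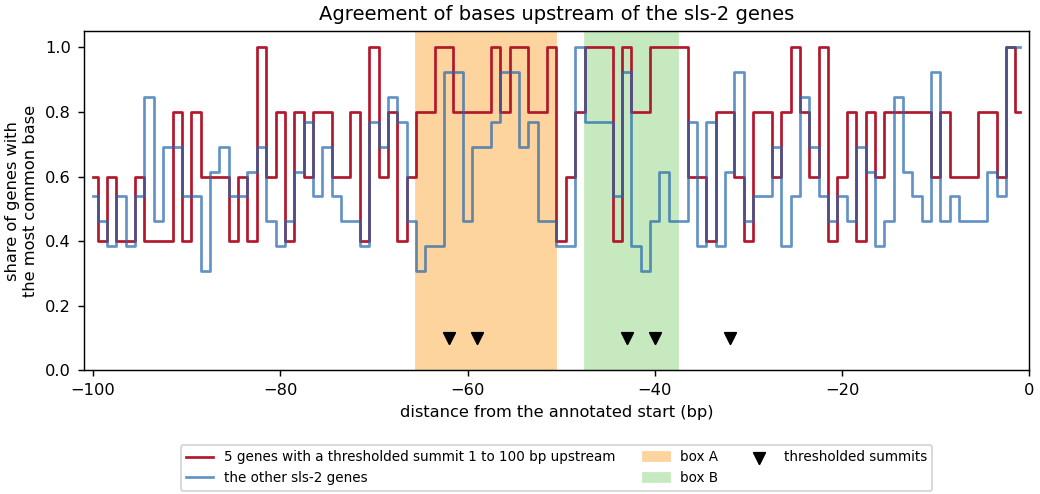
Share of genes (0 to 1) carrying the most common base at each position of the 100 bases before the start (x axis, bp from the start), for the 5 genes with a thresholded summit 1 to 100 bp upstream and for the other 13 sls-2 genes, with boxes A and B and the summits marked. Box A lies 65 to 51 bases before the start, and box B begins 47 bases before it.

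The shared-leader genes were near-identical in the gene and less so upstream. Among sls-2.1 to sls-2.4, identity was 90.9% to 97.3% over the gene and 57% to 79% over the 100 bases upstream. By contrast, sls-2.8 was 71.6% to 74.1% identical to them over the gene and 30% to 39% upstream. All 14 genes outside the shared-leader group, sls-2.8 included, were 71.3% to 81.1% identical to these 4 over the gene and 19% to 41% upstream. The pair sls-2.10 and sls-2.11, which had no peaks, was 99.1% identical over the gene and 95% upstream. Whether reads could be placed at such copies was not tested.

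**Figure D5:**
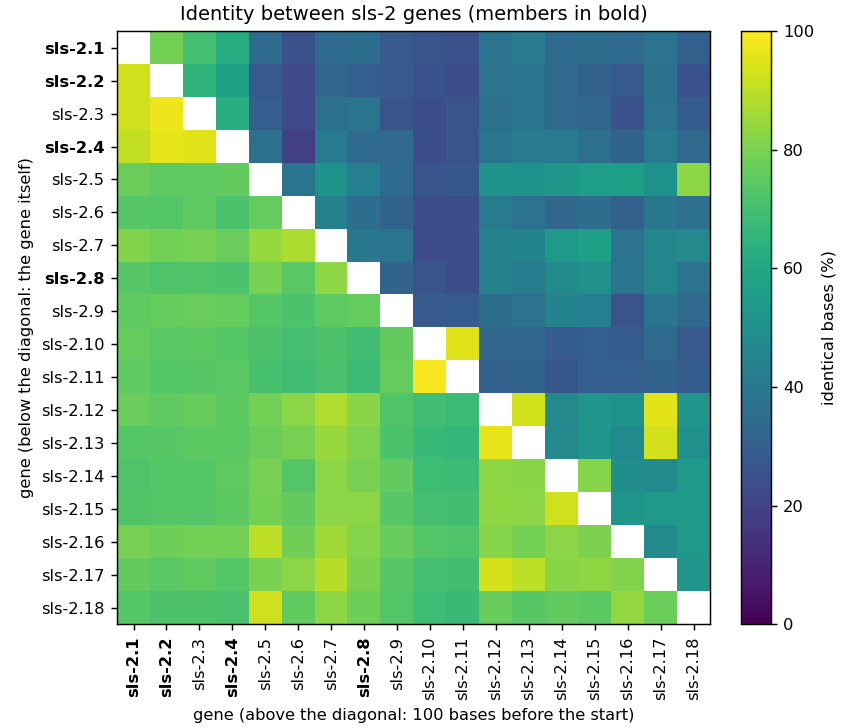
Percent identity between each pair of sls-2 genes, over the gene (below the diagonal) and over the 100 bases upstream (above it). Among sls-2.1 to sls-2.4 the gene identity is 90.9% to 97.3% and the upstream identity 57% to 79%.

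The hexamer AGGTCA, a recognition word of many nuclear receptors, was found on the opposite strand within the genes sls-2.1 to sls-2.4, sls-2.10 and sls-2.11, starting 37 bases into the gene. The 300-bp windows about the summits held it for 3 of the 4 selected genes, all but sls-2.8, and for 245 of 2719 thresholded peaks (9.01%). The 3 genes are 90.9% to 96.4% identical over the gene and hold it at the same position. They are thus copies of one sequence and not independent cases, and nothing is read from the difference. At these 3 genes the hexamer lies in the gene and not at the upstream summit, and sls-2.10 and sls-2.11 had no peak. In each of sls-2.10 and sls-2.11, 51.4% of the 36-base words in the gene and 9.77% of those in the 250 bp upstream were repeated. Whether reads could be placed there was not tested.

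Other genes of the pathway were examined by the same lists of peaks, with a summit within 500 bp for noncoding genes and in the promoter window for coding genes. Of the 12 SL1 RNA genes, 0 had a thresholded summit (95% Clopper-Pearson interval up to 26.5%) and 0 a pooled one. Whether reads can be placed at these copies was not tested. Of the 12 SmY RNA genes, which encode small RNAs linked to trans-splicing in nematodes, 0 had a thresholded summit and 3 a pooled one. Among the latter, smy-1 and smy-2 were counted through the same summit, with a signal of 39.5. The Sm proteins, which bind SL RNAs and other snRNAs, had a thresholded summit for 5 of 7 genes (71.4%, interval 29.0% to 96.3%), against 8.28% of all protein-coding genes. The strongest were snr-4 with 177 at 353 bp upstream, snr-2 with 91.2, snr-6 with 80.3 and snr-3 with 69.3. Those summits lay 207 bp or more upstream, unlike the summits of the selected genes, and none of the 7 genes had one within 200 bp upstream. The summit of snr-4 also lies 42 bp upstream of the snRNA gene C52E4.8.

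Among the SL snRNP proteins 0 of 3 genes and in the SNAP complex 0 of 7 had a thresholded summit. Of all protein-coding genes, 8.28% had one in the promoter window. The pooled signal of snpc-4, which encodes a SNAP complex subunit, was 54.0 (rank 2792), just below the lowest signal kept. The Integrator complex, which cuts the 3′ ends of snRNAs, had one for 2 of 11 genes (18.2%), ints-4 with a signal of 254 (rank 93) and ints-2 with 58.0. The cleavage stimulation factor, which works in 3′-end formation of messages, had one for 1 of 3 genes, cpf-1 with 65.1. A pooled summit was found for 2 of 3 SL snRNP genes, 2 of 7 SNAP complex genes and 6 of 11 Integrator genes. It was found for 3 of 3 cleavage stimulation factor genes and 5 of 7 Sm protein genes, against 25.3% of all protein-coding genes. These counts are small and their intervals wide. The intervals treat the genes of a list as independent draws, and no difference from all protein-coding genes was tested.

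Over the pooled, replicate 1 and replicate 2 signals, the peaks most like that of sls-2.1 had as nearest coding genes wip-1, which encodes a homologue of the WASP-interacting protein, and aak-2, a catalytic subunit of AMP-activated kinase, with distances of 0.0480 and 0.0490 on the log2 scale. For sls-2.2 they were those of the homeobox gene ceh-38 (0.0346) and the lysyl-tRNA synthetase gene kars-1 (0.104), for sls-2.4 those of cbp-1, a histone acetyltransferase gene (0.0601), and C05C10.3 (0.107), and for sls-2.8 those of F38E11.9 (0.0405) and nra-2 (0.0567). The peak of F38E11.9 is also 28 bp upstream of the snRNA gene F38E11.10. The likeness is of signal only.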

How the data were processed

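NHR-11-eGFP ChIP-seq peaks of 2 biological replicates were analysed. According to the deposited readme texts, calling was done per replicate, on its alignments and a further file also used for control-normalised signal, and gave lists that include background regions. The pooled list was called likewise on both replicates, and the thresholded list derives from it and the replicate lists by irreproducible discovery rate. For the aligner, caller and threshold, names and versions were not given in the sources used here. The deposited signal is the authors', on an unstated scale. The deposited −log10 q values reached a shared maximum (3.52 in the pooled list), so ranking used the signal. Positions came from the deposited summit offset, counted from 1. Values are in build ce11, and ce10 served only as an alternative for ranks, without conversion.

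Scripts in Python 3.11.15 (pandas 2.3.3, NumPy 2.4.6, Biopython 1.88, SciPy 1.17.1, matplotlib 3.10.9) were tested on simulated data. Some snRNA genes carry repeated names in Ensembl and were named from RefSeq by WormBase identifier. No test was made. The members and lists were chosen with earlier results of these data known. The likeness to other peaks, boxes A and B, the hexamer, the repeated words and the paired summits were measured after the data were seen. Named genes were the members, the other sls-2 genes, nearest coding genes, up to 4 pathway genes with a thresholded summit per list, and the 2 peaks most like each member. Other genes named, such as snpc-4, C52E4.8, W05B2.8 and F38E11.10, were chosen after their values were seen.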

Additional observations from a re-analysis of the deposited data

How the results depend on the processing

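The 4 selected genes kept a summit under all 10 settings, including windows of 100, 250 and 1000 bp and each replicate left out. They were selected on strong peaks in these same lists. Keeping them in each list and in the 1000-bp window was thus fixed in advance. The number of sls-2 genes with a summit was 6 in the thresholded list. It was 10 (55.6%) in the full pooled list, and 5 without replicate 1 and 7 without replicate 2. The number found in both replicate lists was 10, and 5 when only the strongest peaks of each list were used. The cause of these moves was not tested beyond the length of the lists. No paired analysis was possible because there was 1 group. Depth limits cannot be given, since the lists hold no read counts.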
